A study of Homo sapiens with 22 samples.

Results

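The comparison described here sets the H3K27ac peaks of AN3CA cells carrying the CBR truncation of ARID1A (1 library) against those of AN3CA cells carrying an empty vector (Empty, 2 replicates). The members are the 40271 CBR peaks on chromosomes 1 to 22, out of 320830 H3K27ac peaks in the 7 libraries of this mark, and 3 of the 22 libraries of the study enter the comparison itself. AN3CA is an established human endometrial carcinoma line. The labels call CBR a truncation mutant without giving its boundaries or its expression level, and are silent on whether the libraries stem from independent cultures. Cells with wild-type ARID1A (WT), an ARID domain mutant (DBDmut), the delIDR1 truncation or a hybrid carrying the DDX4 disordered region (DDX4), 1 library each, were used beside it. The growth protocol, EMEM with fetal bovine serum, is the same for all.

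ARID1A belongs to the canonical form of BAF, a SWI/SNF chromatin remodelling complex that uses ATP to move nucleosomes and is found at many enhancers. SMARCA4 is an ATPase of the complex and SMARCC1 is a core subunit. Acetylation of lysine 27 of histone H3 (H3K27ac) is laid down by the acetyltransferases EP300 and CREBBP and marks active promoters and enhancers. It was measured by CUT&Tag, in which an antibody brings a transposase to its target in nuclei and the released fragments are sequenced.

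Peaks were listed separately for each library, on build hg19, and the 7 H3K27ac lists held 30991 to 90766 peaks on chromosomes 1 to 22. CBR had 40271, against 35429 in Empty replicate 1 and 90766 in Empty replicate 2, and WT had 49682. Relative depth was read from the lowest local background in a list and is an estimate. It was 4.69 fragments per kb in CBR, 4.48 in WT, 4.40 in Empty replicate 1 and 14.5 in Empty replicate 2, so Empty replicate 2 stood apart. CBR, WT, DBDmut, delIDR1 and Empty replicate 1 carried the same stamp in their peak names, while DDX4 and Empty replicate 2 had a stamp each. The labels do not say what the stamps are. With a single CBR library no difference between CBR and Empty could be tested, and no p-value is given. Shares carry Wilson 95% intervals that cover counting error only.

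Most CBR peaks lay where Empty cells also had H3K27ac, and those that did not were weak. Of the 40271 CBR peaks, 17504 (43.5%, 43.0 to 44.0) met a peak of both Empty replicates by at least 1 bp. Another 14004 (34.8%) met a peak of Empty replicate 2 alone, and 520 (1.29%) met a peak of Empty replicate 1 alone. The remaining 8243 (20.5%, 20.1 to 20.9) met no Empty peak and are called CBR only. The same share was 39.9% for WT, 32.9% for DBDmut, 31.1% for delIDR1 and 15.5% for DDX4. In the other direction, 27791 peaks of Empty replicate 1 met a peak of replicate 2, and 8527 of these (30.7%, 30.1 to 31.2) met no CBR peak and are called Empty only.

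CBR only peaks were narrow and low in their list. Their median width was 188 bp, with the middle 50% between 165 and 236 bp, against 357 bp (239 to 538) for CBR peaks of both Empty replicates. The median pileup at the summit, the number of stacked fragments recovered from the authors' fold and p-value, was 10 for CBR only peaks and 31 for peaks of both Empty replicates. The authors' fold enrichment over the local background, which like every score in a list is the authors' value, had a median of 4.75 for CBR only peaks and 6.71 for peaks of both Empty replicates. Of the 5000 peaks with the highest -log10 q in the CBR list, 50 were CBR only and 4725 met both Empty replicates.

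CBR only peaks were few among strong peaks. In the strongest 20% of the CBR list 158 of 8055 peaks were CBR only (1.96%), and in the weakest 20% 3810 of 8054 were (47.3%). Peaks that neither Empty replicate had made up 19.3% of the strongest and 57.9% of the weakest 20% in WT. In DBDmut it was 13.4% of the strongest and 52.2% of the weakest, in delIDR1 12.3% and 53.1%, and in DDX4 0.211% and 41.2%. Among strong peaks CBR and DDX4 thus had few that Empty cells lacked, while the other 3 constructs had many. The number rested on Empty replicate 2, the deeper library. Empty replicate 1 had the stamp of CBR and nearly its depth. Set against it alone, 22247 CBR peaks (55.2%) were unmatched. The share was 57.9% in WT, 48.6% in DBDmut, 45.2% in delIDR1 and 45.03% in DDX4. By this count CBR was above DBDmut and delIDR1, whereas with both replicates it was below them. In the strongest 20% of each list, 8.57% of CBR peaks and 26.2% of WT peaks had no peak in Empty replicate 1. This share was 17.7% in DBDmut, 18.3% in delIDR1 and 1.13% in DDX4.

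**Figure D1:**
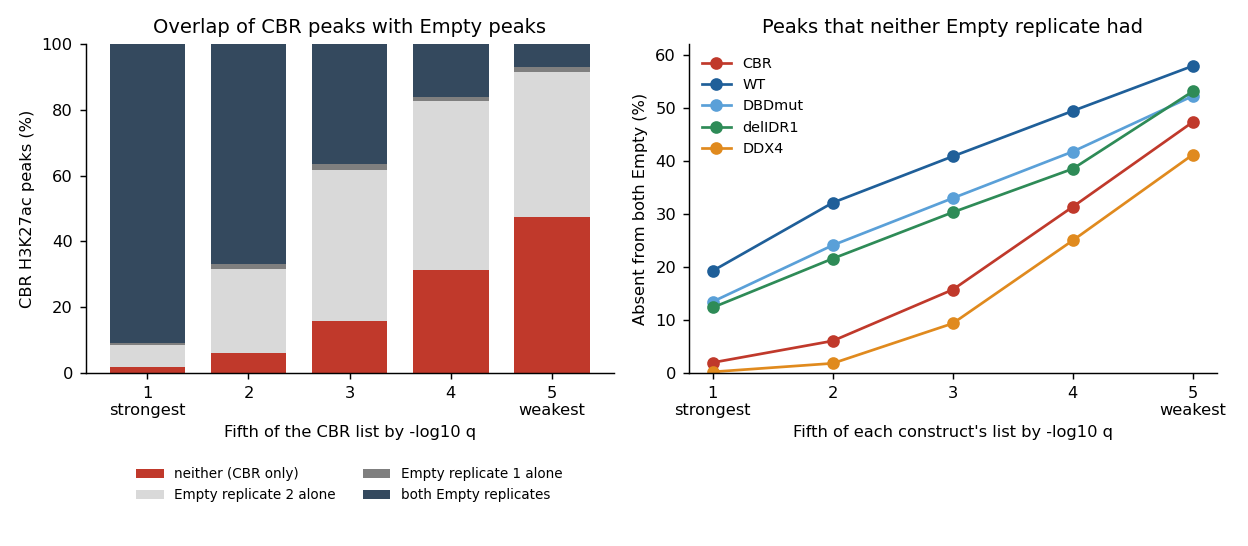
Left, CBR H3K27ac peaks on chromosomes 1 to 22 in 5 equal parts of the list from strongest to weakest -log10 q, as the percentage that met neither, either or both Empty replicates. Right, the percentage of each construct's peaks that neither Empty replicate had, in the same 5 parts of its own list. The CBR line starts at 1.96% and ends at 47.3%, near DDX4 at the strong end and below WT, DBDmut and delIDR1 throughout.

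The distance of CBR from Empty depended on which list was read and on which replicate. Of the CBR peaks, 21.8% had no peak in Empty replicate 2, against 21.6% of the peaks of Empty replicate 1. Of the peaks of Empty replicate 2, 67.8% had none in CBR and 75.6% had none in Empty replicate 1. Of the peaks of Empty replicate 1, however, 44.1% had none in CBR and 21.6% had none in Empty replicate 2. By the first 2 counts CBR was as near to an Empty replicate as the other replicate was, and by the last it was not. WT also gave a mixed picture: 43.0% of its peaks were absent from Empty replicate 2, while 32.05% of the peaks of Empty replicate 1 were absent from WT. Measured in bases, the overlap of CBR with Empty replicate 1 was 0.302 of their union and that with Empty replicate 2 was 0.266. The overlap of WT with them was 0.311 and 0.240, and the Empty replicates shared 0.202 of theirs. These ratios also move with the covered length, which was 13.2 Mb in CBR, 10.4 Mb in Empty replicate 1 and 36.6 Mb in Empty replicate 2.

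Of the 5000 strongest CBR peaks, 249 (4.98%) were absent from Empty replicate 1 and 76 (1.52%) from Empty replicate 2. For WT these were 1001 (20.02%) and 800 (16.0%). Of the 5000 strongest peaks of Empty replicate 1, 500 (10%) were absent from CBR and 104 (2.08%) from Empty replicate 2. The other constructs lacked 229 (WT), 301 (DBDmut), 366 (DDX4) and 481 (delIDR1) of them. Of the 5000 strongest peaks of Empty replicate 2, 33 (0.66%) were absent from CBR. Among these 5000, peaks missing from CBR thus outnumbered CBR peaks missing from Empty for replicate 1, and the order was the opposite for replicate 2. However, 5000 peaks are a smaller part of the longer list of replicate 2. In the strongest 20% of each list, 12.4% of Empty replicate 1 and 16.2% of Empty replicate 2 peaks were absent from CBR. Of CBR peaks in that part, 8.57% were absent from replicate 1 and 2.57% from replicate 2. By this cut the order for replicate 2 turned over.

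**Figure D2:**
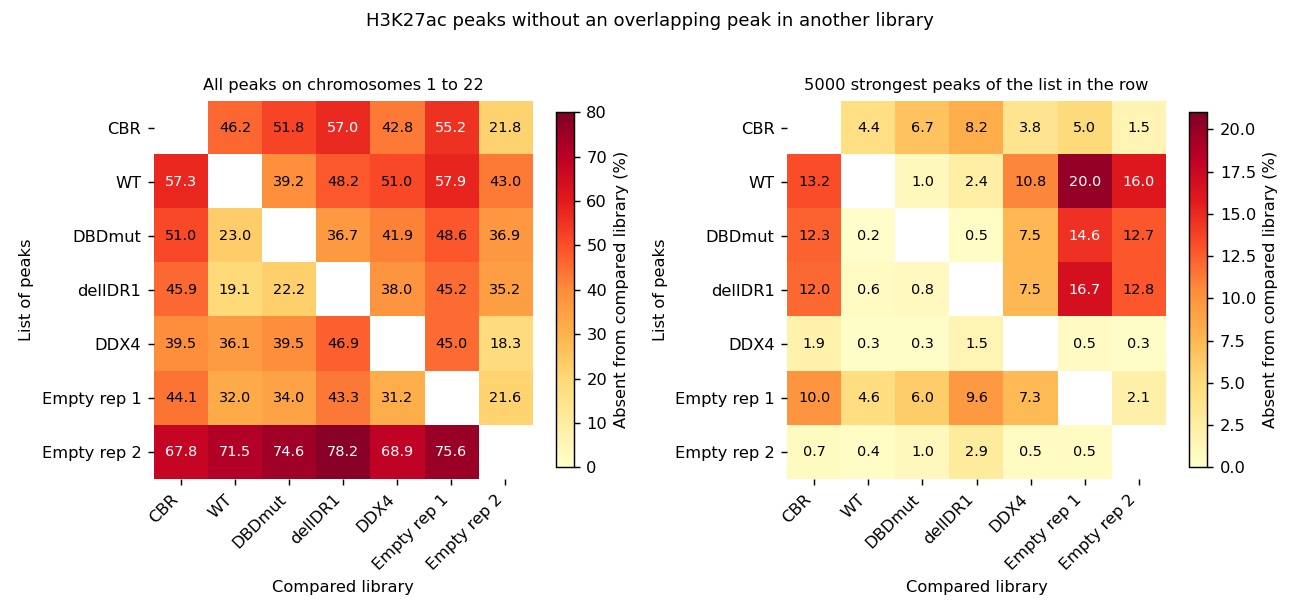
Percentage of the H3K27ac peaks of the library in the row that overlapped no peak of the library in the column, for all peaks on chromosomes 1 to 22 (left) and for the 5000 strongest peaks of the row's list (right). In the right panel the CBR row is at 5.0 and 1.5% for the Empty replicates, where WT is at 20.02 and 16.0%. Lists differ in length, which moves both panels.

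The next question was how many CBR only peaks WT cells also had. WT had an H3K27ac peak at 1588 of the 8243 (19.3%, 18.4 to 20.1), against 53.8% of all CBR peaks. DBDmut had 14.5% of the CBR only peaks and 48.2% of all CBR peaks, delIDR1 14.6% and 43.0%, and DDX4 12.3% and 57.2%. WT had 63.2% of the DBDmut peaks that neither Empty replicate had, 66.1% of those of delIDR1 and 27.2% of those of DDX4. It also had more of all their peaks: 76.98% for DBDmut, 80.9% for delIDR1 and 63.9% for DDX4. The median pileup of CBR only peaks, 10, was below the 16, 14 and 12 of these unmatched peaks. In the strongest 20% of each list WT had 99.5%, 98.7% and 73.3% (11 of 15) of them, against 74.1% for CBR. In the weakest 20% it had 37.01%, 41.6% and 16.5%, against 9.61% for CBR. Seen from WT, CBR had a peak at 1532 of the 19816 WT peaks that both Empty replicates lacked (7.73%), against 42.7% of all WT peaks. DDX4 had 7.56% of the same WT peaks, DBDmut 41.0% and delIDR1 33.1%. Of all WT peaks, DDX4 had 49.0%, DBDmut 60.8% and delIDR1 51.8%. Against Empty replicate 1 alone, WT had 5645 of the 22247 unmatched CBR peaks (25.4%).

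The share moved with peak strength. WT had 117 of the 158 CBR only peaks in the strongest 20% of the CBR list (74.1%), 275 of 487 in the next 20% (56.5%), 434 of 1265 in the middle (34.3%), 396 of 2523 in the next (15.7%) and 366 of 3810 in the weakest 20% (9.61%). CBR peaks that met Empty replicate 2 alone gave 60.3%, 48.4%, 33.9%, 22.5% and 15.5% in the same order, so the order of the 2 classes turned over between strong and weak peaks. CBR peaks of both Empty replicates were found in WT in 95.7% down to 73.2%. The CBR only peaks that WT had were stronger within the CBR list, with a median rank of 23690 and a median pileup of 14, against 32615 and 10 for those that WT lacked. They met 1573 WT peaks, whose median rank in the WT list was 17746. The WT peaks that both Empty replicates lacked had a median rank of 31328.

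**Figure D3:**
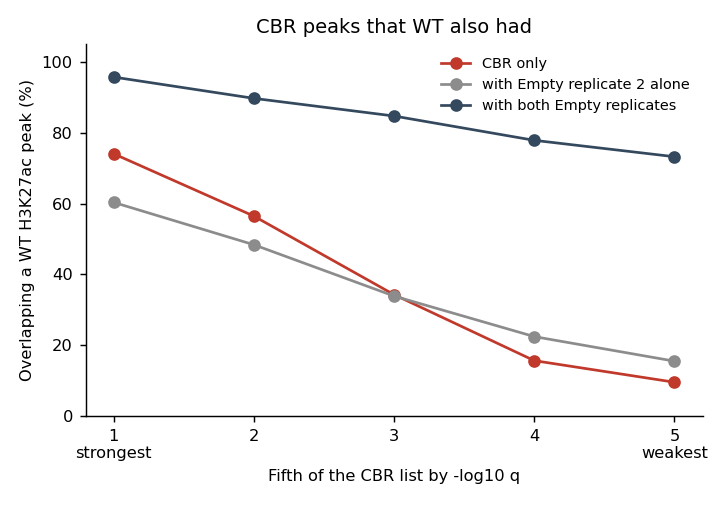
Percentage of CBR H3K27ac peaks that overlapped a WT H3K27ac peak, in 5 equal parts of the CBR list from strongest to weakest, for CBR only peaks, peaks with Empty replicate 2 alone and peaks with both Empty replicates. CBR only peaks fall from 74.1% to 9.61% and peaks of both Empty replicates from 95.7% to 73.2%.

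CBR only peaks that WT had were mostly found in DBDmut or delIDR1 as well. Of the 1588, 1201 (75.6%, 73.5 to 77.7) had a peak in DBDmut or delIDR1 and 477 (30.0%) had one in DDX4. All 4 other constructs had 359 of them, which is 4.36% of all CBR only peaks. They had 71.0% of the CBR peaks of both Empty replicates and 8.26% of those of Empty replicate 2 alone. Of the CBR peaks of both Empty replicates, whether or not WT had them, DBDmut had 85.3%, delIDR1 76.9% and DDX4 92.0%. Sharing among constructs was thus not particular to the CBR only peaks that WT had. Of the 6655 that WT lacked, 291 (4.37%) had a peak in DBDmut or delIDR1, 537 (8.07%) had one in DDX4 and 5902 (88.7%) had none in any other construct. No other construct had a peak at 71.6% of all CBR only peaks, at 3.01% of the CBR peaks of both Empty replicates and at 46.3% of those of Empty replicate 2 alone.

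Peaks of the BAF subunits, whose lists were not used to choose the classes, were rare at CBR only peaks. A SMARCA4 or SMARCC1 peak of CBR cells overlapped 371 of the 8243 CBR only peaks (4.50%, 4.07 to 4.97), against 23.2% of all CBR peaks and 45.2% (44.5 to 46.0) of those of both Empty replicates. Both subunits were present at 114 CBR only peaks (1.38%) and at 25.7% of peaks of both Empty replicates. Strength again went with the share: 50.6% of the CBR only peaks in the strongest 20% of the list had a CBR subunit peak and 0.787% in the weakest, against 68.6% and 8.58% for peaks of both Empty replicates.

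Subunit peaks of every library were rarer at CBR only peaks than over all CBR peaks. At all CBR only peaks, the share with either subunit was 4.50% in CBR, 10.3% in WT, 7.13% in DBDmut, 4.37% in delIDR1 and 0.934% in DDX4, and 0.510% and 0.861% in Empty replicates 1 and 2. Over all CBR peaks it was 23.2% in CBR, 29.1% in WT, 28.2% in DBDmut, 19.3% in delIDR1 and 22.5% in DDX4, and 21.8% and 28.2% in the Empty replicates. CBR only peaks were chosen for lacking Empty H3K27ac, which may itself disfavour Empty subunit peaks. The Empty values at these peaks, and counts of subunit peaks that Empty lacked, are therefore a description. The CBR only peaks were then split by H3K27ac in WT, a split that may itself favour WT subunit peaks, so its values are a description. At the 1588 that carried H3K27ac in WT too, the share was 15.6% (13.9 to 17.4) in CBR, 47.8% (45.3 to 50.3) in WT, 33.1% in DBDmut, 20.3% in delIDR1 and 2.77% in DDX4, and 0.378% and 1.13% in the Empty replicates. At the 6655 without H3K27ac in WT it was 1.86% in CBR, 1.31% in WT, and 0.541% and 0.796% in the Empty replicates. CBR cells had a subunit peak with none in either Empty replicate at 328 CBR only peaks (3.98%) and 4.68% of all CBR peaks. Both subunits were called at 100 of the 328, or 1.21% of CBR only peaks, against 1.22% of all CBR peaks. WT H3K27ac overlapped 66.6% of the CBR only peaks with a CBR subunit peak and 17.0% of those without. For CBR peaks of both Empty replicates these were 95.1% and 85.6%. Subunit peaks and WT H3K27ac were both more frequent at strong peaks, and these shares were not matched for strength. The SMARCA4 lists of CBR and WT held 12616 and 12720 peaks and the SMARCC1 lists 11744 and 23364, so the SMARCC1 list of WT was the longer. For SMARCA4 alone, with lists of near equal length, the shares at CBR only peaks were 2.69% in CBR and 5.75% in WT, and over all CBR peaks 17.1% in CBR and 15.3% in WT.

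**Figure D4:**
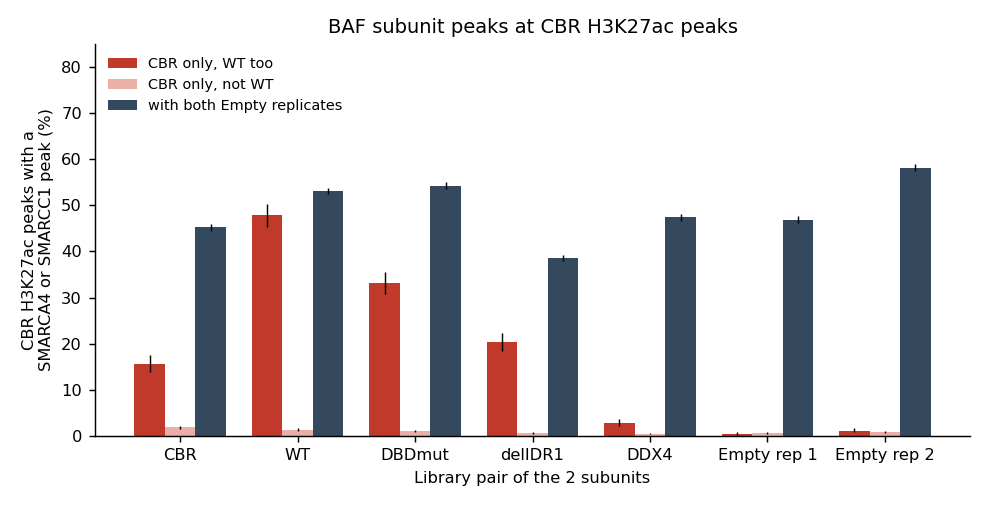
Percentage of CBR H3K27ac peaks that overlapped a SMARCA4 or SMARCC1 peak of each library pair, for CBR only peaks that WT also had (n = 1588), CBR only peaks that WT lacked (n = 6655) and CBR peaks of both Empty replicates (n = 17504). Error bars are Wilson 95% intervals for counting error. In CBR only peaks with WT H3K27ac the bar is at 15.6% in CBR, 47.8% in WT and at most 1.13% in Empty. CBR only peaks were chosen for lacking Empty H3K27ac, which may itself disfavour Empty subunit peaks.

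CBR only peaks lay about as far from Empty peaks as the unmatched peaks of other constructs, and seldom next to each other. The median distance to the nearest Empty peak was 4490 bp, 19.96% lay within 1 kb of one, and 97.3% lay within 50 kb. For WT peaks that neither Empty replicate had, the median was 5452 bp, with 16.7% within 1 kb and 91.4% within 50 kb. The medians for the unmatched peaks of DBDmut, delIDR1 and DDX4 were 6076, 4710 and 3998 bp. Within 1 kb lay 16.4%, 18.5% and 24.5% of them, and within 50 kb 89.2%, 93.3% and 97.1%. Distances of sites placed without regard to H3K27ac were not computed. Within 1 kb lay 17.7% of the CBR only peaks in the strongest 20% of the list and 21.1% of those in the weakest, while the median distances were 3048 and 4538 bp. Near the 1 bp limit, 163 CBR only peaks ended within 50 bp of an Empty peak, and 525 CBR peaks overlapped one by no more than 50 bp. WT had 16.0% of these 163 and 15.6% of the 525. Other overlap rules moved more peaks. The CBR only class, 8243 peaks at 1 bp, held 9398 with an overlap of 50% of the shorter peak. It held 10346 with summits within 250 bp.

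Joining CBR only peaks across gaps no wider than those commonly bridged to stitch super-enhancers gave 85 runs of 3 or more, which held 269 peaks (3.26%). The same step gave 1170 runs with 22.04% of the unmatched peaks in WT, 562 with 16.1% in DBDmut, 260 with 9.02% in delIDR1 and 35 with 1.96% in DDX4, although a longer list of peaks forms runs more easily. The run with the most peaks lay on chromosome 14 from 100029530 to 100063493 and held 6 CBR only peaks with folds of 3.26 to 4.35. WT had 2 of the 6 and neither Empty replicate had a peak at any, though 9 other peaks of Empty replicate 2 and 1 of replicate 1 fell in the span. A run of 5 lay on chromosome 10 from 81918400 to 81943075, with 1 of its peaks in WT. Another 9 runs held 4 peaks each. The 3 of these with the widest span lay on chromosome 7 from 74075373, on chromosome 5 from 14149073 and on chromosome 17 from 42799599, with 1, 0 and 0 peaks in WT. None of the peaks in these 5 runs met a SMARCA4 or SMARCC1 peak of CBR or WT.

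Chromosomes differed in the CBR only share. It was lowest on chromosome 19 (238 of 2042 peaks, 11.7%, 10.3 to 13.1), then chromosome 20 (16.7%) and chromosome 21 (18.2%). It was highest on chromosome 18 (166 of 638, 26.02%, 22.8 to 29.6), then chromosome 4 (24.9%) and chromosome 3 (24.4%). The strongest 20% of the list held 31.2% of the CBR peaks of chromosome 19, 17.8% of those of chromosome 20 and 21.4% of those of chromosome 21. It held 16.3% of those of chromosome 18, 16.9% of those of chromosome 4 and 18.4% of those of chromosome 3. Chromosome 20 thus had a low CBR only share without many strong peaks, and the part of strength in the differences was not tested. The share of CBR only peaks that WT had was 20.2% on chromosome 19 and 15.1% on chromosome 18.

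**Figure D5:**
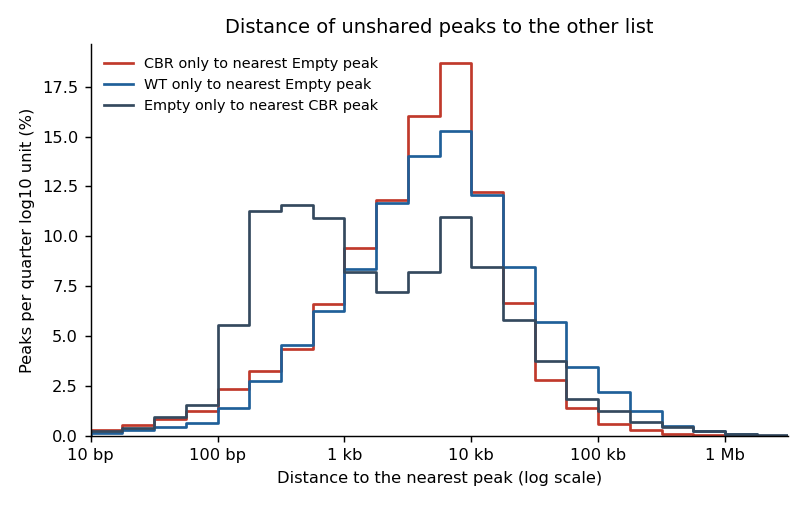
Distance from CBR only peaks (n = 8243) and from WT only peaks (n = 19816, absent from both Empty replicates) to the nearest Empty peak, and from Empty only peaks (n = 8527) to the nearest CBR peak, on a log axis as the percentage of each set per interval of 0.25 log10 units. Empty only peaks have 2 humps, the higher below 1 kb, where 42.8% of them lie, against 19.96% of CBR only peaks.

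The strongest CBR only peaks that WT shared were found in nearly every construct. The first, on chromosome 3 from 46977032 to 46977287, held rank 196 of the CBR list, and its fold was 11.6 at a pileup of 126. WT, DBDmut, delIDR1 and DDX4 all had H3K27ac there and neither Empty replicate did. SMARCC1 peaks of CBR, WT, DBDmut and delIDR1 met it, while SMARCA4 was called in CBR alone. The next, on chromosome 16 from 89461630 to 89461915, held rank 1090, and had SMARCA4 and SMARCC1 in CBR, WT and DBDmut. On chromosome 9, the peak from 123697709 to 123697963, with a fold of 14.4, had both subunits in CBR, WT, DBDmut and delIDR1 and in no Empty library.

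The other 5 of these 8 peaks had ranks of 1493 to 1769. They lay on chromosome 17 from 40819343, chromosome 14 from 23531294, chromosome 9 from 2559322, chromosome 7 from 139432058 and chromosome 10 from 100174729. DDX4 lacked the chromosome 10 peak and had the other 7. The peak on chromosome 9 from 2559322 to 2560054 had the highest fold of the 8, 16.3, was 733 bp wide, and lay 171785 bp from the nearest Empty peak. All the others of the 8 lay 901 to 3669 bp from one. The chromosome 14 peak met no BAF subunit peak in any library, and the other 7 met at least 1 in WT. The widest CBR only peak that WT had spanned 956 bp on chromosome 3 from 51377738 to 51378693 and was in all 5 constructs.

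The strongest CBR only peaks that WT lacked were mostly in no other H3K27ac list. The first of them held rank 1413 and lay on chromosome 5 from 1807161 to 1807319. Its fold was 11.1 at a pileup of 63, and SMARCA4 and SMARCC1 of DBDmut were called there. Of the 8 strongest, 6 had no H3K27ac peak in any other construct. The 2 others were the peak on chromosome 10 from 135138080 to 135138228, which delIDR1 had and which met SMARCA4 and SMARCC1 of CBR, and the peak on chromosome 8 from 8799891 to 8800360, which DDX4 had and which met SMARCC1 of CBR. Peaks on chromosome 17 from 17723105 and on chromosome 11 from 6490410 met SMARCA4 of CBR and no other CBR subunit peak. Those on chromosome 19 from 48638702, chromosome 22 from 24670777 and chromosome 6 from 31731332 met no subunit peak in any library. The chromosome 8 peak lay 57485 bp from the nearest Empty peak, and the others of the 8 lay 183 to 4180 bp from one. WT had H3K27ac peaks within 5 kb of those on chromosomes 5, 17, 22, 11 and 8. It had none within 5 kb of those on chromosomes 19, 10 and 6. The widest of the class, 889 bp on chromosome 5 from 23526848 to 23527736, had both subunits in CBR, no H3K27ac in any other library within 5 kb and a pileup of 16.

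Peaks of both Empty replicates that CBR lacked were also weaker than those it had, but included strong ones. The 8527 Empty only peaks had a median pileup of 22 and a median width of 183 bp in Empty replicate 1. Those that CBR had showed 32 and 285 bp. Of the 5000 strongest peaks of Empty replicate 1, 406 were Empty only. Many Empty only peaks were present with another form of ARID1A: WT had 57.1% of them, DBDmut 55.9%, delIDR1 41.2% and DDX4 61.2%, against 79.7%, 76.1%, 65.2% and 82.7% of all peaks of both Empty replicates. All 4 of these constructs had 2324 of the Empty only peaks (27.3%), and none had 1723 (20.2%). Of all peaks of both Empty replicates, 56.7% were in all 4 and 8.21% in none.

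The share of Empty peaks absent from a single construct alone was highest for CBR, with delIDR1 close to it. Of the 15745 peaks of both Empty replicates that the other 4 constructs all had, 14.8% (14.2 to 15.3) were absent from CBR. The same share, with CBR among the 4 that had the peak, was 12.3% for delIDR1, 3.09% for DBDmut, 1.85% for WT and 1.69% for DDX4. The relative depth of delIDR1, 3.59 fragments per kb, was below that of CBR, and its list was the shortest. A SMARCA4 or SMARCC1 peak was found at 11.1% of Empty only peaks in CBR, 15.6% in WT, and 16.3% and 21.3% in Empty replicates 1 and 2. At the Empty peaks that CBR had, the shares were 41.8% in CBR, 50% in WT, and 43.7% and 56.6% in Empty replicates 1 and 2.

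Many Empty only peaks lay beside a CBR peak. Of the 8527, 42.8% were within 1 kb of one, and the median distance was 1656 bp. Among the 406 in the strongest 5000 of Empty replicate 1, 28.3% were within 1 kb and the median was 3539 bp. Peaks had a median width of 255 bp in CBR and 215 bp in Empty replicate 1, the lowest of the 7 lists. When peaks less than 1 kb apart were joined in every list, 23.5% of the Empty regions of both replicates were absent from CBR in place of 30.7%, a comparison chosen after seeing the data.

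Of the 8 strongest Empty only peaks by summed rank, 6 lay within 1 kb of a CBR peak. The first was on chromosome 7 from 95138598 to 95138872, 2226 bp from the nearest CBR peak, at ranks 1194 and 1766 of Empty replicates 1 and 2, and all 4 other constructs had it. Within 5 kb of it CBR had 3 peaks and Empty replicate 1 had 5. The peak on chromosome 7 from 139043277 to 139043561 lay 266 bp from a CBR peak, with 2 CBR peaks and 6 peaks of Empty replicate 1 within 5 kb. Peaks on chromosome 19 from 55727168, chromosome 10 from 112632556, chromosome 6 from 31762011, chromosome 17 from 43448251 and chromosome 17 from 18935165 were 310 to 854 bp from a CBR peak. The chromosome 19 peak was in no other construct. The remaining peak of the 8, on chromosome 8 from 99956340 to 99956724, was 68492 bp from the nearest CBR peak, had a fold of 13.7 in Empty replicate 1 and was present in WT, DBDmut, delIDR1 and DDX4. SMARCA4 of CBR was called there.

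The widest Empty only peak spanned 3106 bp on chromosome 4 from 189366996 to 189370101. It was present in both Empty replicates and in WT, DBDmut, delIDR1 and DDX4, and the nearest CBR H3K27ac peak was 291372 bp away, while SMARCA4 and SMARCC1 of CBR were both called in it. The next, 1559 bp on chromosome 15 from 51172388 to 51173946, was at rank 628 of Empty replicate 1 and 21286 of Empty replicate 2 and in no construct. A peak of 1557 bp on chromosome 1 from 172311742 to 172313298 was in all 4 other constructs and lay 417 bp from a CBR peak.

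The 5 strongest CBR peaks that both Empty replicates had were on chromosome 1 from 121484069 to 121485424 and from 236260408 to 236260709, on chromosome 5 from 10034 to 11765, and on chromosome 12 from 133841524 to 133841891 and from 95187 to 95735. Their folds ran from 11.7 to 29.9. All 5 had a peak in every one of the 7 H3K27ac libraries and 14 SMARCA4 and SMARCC1 libraries. Artefact-prone regions were not masked, and whether any of these 5 peaks lies in one was not examined. The widest shared CBR peak spanned 3154 bp on chromosome 6 from 157731479 to 157734632, reached a fold of 8.17 and was likewise present in all of these libraries.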

How the data were processed

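CUT&Tag peaks of H3K27ac (7 libraries) and of SMARCA4 and SMARCC1 (14 libraries) were used, and 1 HA library was not used here. The deposited lists have the narrowPeak layout, 1 per library, with replicates not pooled. For every peak the authors deposited its fold and, as -log10, its p-value and q-value. From the values themselves, the fold is the ratio of summit pileup to local background with 1 added to each. The deposited score is the -log10 q times 10 without its decimals, with no more than 3 exceptions in any H3K27ac list. Per the labels' protocols, nuclei and libraries were prepared by a manufacturer's CUT&Tag procedure. Build hg19 and bcl2fastq come from the submitters' processing notes. The aligner, peak caller, control and handling of duplicates were not given in the sources used here. Stamps in the peak names were used as they stand.

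Peaks on chromosomes 1 to 22 were compared by an overlap of 1 bp or more. Pileup and background were solved from fold and p, taken as a Poisson tail, to within 0.001 in -log10 p, and relative depth is the lowest background per length of the shortest peak. Named sites are the 8 strongest per class (5 for shared peaks, summed rank of both replicates for Empty only), the 3 widest, the 3 chromosomes at either end and the 5 runs with the most peaks, ties taken by span. Members, classes and alternatives were chosen with earlier results of these data known. No hg19 genome or annotation was used, so sites have positions without genes or sequence. Other overlap rules, thresholds, list lengths and single Empty replicates were tried. Overlap, distance and pileup code was tested on simulated data. Python 3.11.15, numpy 2.4.6, scipy 1.17.1, pandas 2.3.3 and matplotlib 3.10.9 were used.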

Additional observations from a re-analysis of the deposited data

How the results depend on the processing

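The share of CBR only peaks, 20.5%, was 23.3% with an overlap of 50% of the shorter peak, 25.7% with summits within 250 bp, 14.9% with all lists at a -log10 q of 5 or more, 10.7% with CBR peaks alone so limited, 28.7% with lists of equal length (30991 peaks), 21.5% with peaks less than 1 kb apart joined, and 21.8% to 55.2% without either Empty replicate. The share of CBR only peaks that WT had, 19.3%, was 17.4% at 50% overlap, 28.4% and 34.0% at the stricter q (all lists, CBR alone), 18.1% at equal length and 21.4% to 25.4% without an Empty replicate. The Empty only share, 30.7%, was 32.1% at 50% overlap, 31.8% by summits, 29.8% and 27.3% at the stricter q, 26.6% at equal length, 23.5% joined, and 44.1% to 67.8% with 1 replicate. The share of CBR peaks with both Empty replicates, 43.5%, was 41.7% at 50% overlap, 34.7% by summits, 55.4% and 58.5% at the stricter q, 51.0% at equal length, 42.0% joined, and 44.8% to 78.2% with 1 replicate. CBR subunit peaks were at 3.96% of CBR only peaks at 50% overlap, 6.49% at the stricter q, 6.25% at equal length, 1.38% with both subunits required, and 5.76% to 5.81% with 1 replicate. At shared peaks the values were 42.2% at the stricter q, 48.5% at equal length, 25.7% with both subunits, 50.6% joined and 28.0% to 44.7% with 1 replicate. Joining was chosen after seeing the data. Causes of these shifts were not tested. No paired analysis was possible because replicate numbers exist for Empty alone. A peak below a library's threshold is not shown to be absent, which bears most on the weak CBR only peaks.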

Other observations

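Chromosome 7 held 7.07% of the CBR H3K27ac peaks, 5.81% of those of WT, and 5.98% and 7.52% of those of Empty replicates 1 and 2. Chromosome 22 held 2.55% in CBR, 2.16% in WT, and 1.99% and 2.78% in the Empty replicates. On chromosome 7, 42.2% of CBR peaks met Empty replicate 2 alone, against 29.6% on chromosome 3 and 29.9% on chromosomes 4 and 12. These chromosomes were picked after their values were seen.

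The WT peaks that both Empty replicates lacked were found in CBR more often at the strong end. Ordered by -log10 q in WT and cut into 5 equal parts, CBR had 17.8%, 7.04%, 5.40%, 4.14% and 4.24% of them. Those with a CBR peak had a median rank of 18723 in the WT list, against 32106 for those without.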
